A study of Homo sapiens with 6 samples.

Results

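The genes described are 10 hypoxia response genes, namely HIF1A, EPAS1, EGLN1, EGLN3, VEGFA, ADM, NDRG1, CA9, ANKRD37 and BNIP3. They were taken by symbol from the deposited RNA table, and they are 10 of its 19223 gene symbols. Each symbol is represented by its most abundant transcript (by the mean of all 6 libraries), and the other transcripts of the same gene are described beside it. All 10 genes passed the filter, which asked for 10 or more in 3 or more libraries, and 12725 genes in all were tested.

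The RNA came from LoVo cells, an established human line from a colorectal adenocarcinoma, grown in 6-well plates and given 2.5 μM DCC-2036, a tyrosine kinase inhibitor, or vehicle. There were 3 libraries of vehicle-treated cells (Control) and 3 of cells with the inhibitor (DCC-2036), and the sample labels give 48 h for both, whereas a figure legend of the study gives 24 h. The labels name DMEM with serum as the medium and the study's methods another medium. Neither describes a group kept in low oxygen, and oxygen at the cells is not given. The labels do not say whether the replicates were separate cultures, so p-values measure the spread between these samples, which may be technical.

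Cells sense oxygen through prolyl hydroxylases, the EGLN enzymes, which mark the alpha subunits of the hypoxia-inducible factors (HIFs) for recognition by the VHL ubiquitin ligase and for degradation. When oxygen is low the subunits last, pair with ARNT and switch on genes for blood vessel growth, glucose use and pH control. These factors are regulated mainly as proteins, and many of their target genes are also driven by other signals.

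The values are the authors' signal per transcript, adjusted to a common depth and not divided by length. Read numbers are therefore unknown. Column totals were 38997229, 39956227 and 40587145 for Control and 43279603, 45957597 and 48023306 for DCC-2036. Fold changes were computed as differences of log2(value + 1), which understate the change of low genes, and tested with limma across all genes, two-sided, with Benjamini-Hochberg adjustment. A gene was called where its adjusted p-value was under 0.01. Exact permutation of 3 libraries against 3 has 0.1 as its smallest p-value. The samples are bulk RNA, in which fewer cells of a type and less RNA per cell cannot be told apart.

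HIF1A, VEGFA and EGLN1 rose with DCC-2036, and CA9, ANKRD37 and ADM fell, where CA9 values may include reads of an overlapping gene that also fell. These are 3 of the 10 genes called higher, beside 19.2% of all genes tested, and 3 called lower, beside 22.7%, so that 6 were called in either direction, beside 41.9%. EPAS1, NDRG1, EGLN3 and BNIP3 were not called. The values of the 3 DCC-2036 libraries did not overlap those of the 3 Control libraries in 8 of the 10 genes, beside 71.1% of all genes tested. With the limit at 0.05, 5 of the genes were higher, beside 28.5%, and 3 lower, beside 33.7%, or 8 in either direction, beside 62.2%. The median log2 fold change was 0.32 over the 10 genes and -0.09 over all genes tested, and the members ranged from -1.60 to 1.26.

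With the columns scaled to equal totals the median of all genes moved by -0.20, to -0.29, and the genes called were 1669 higher and 3440 lower in place of 2442 and 2887. Relative to the median of all genes, HIF1A stood at 1.35 and 1.35 (log2, as deposited and with equal totals). On the same scale EGLN1 stood at 0.82 and 0.82, EGLN3 at 0.21 and 0.21, and CA9 at -1.49 and -1.49. Scaling a column shifts all genes nearly alike, so these distances could hardly change, and their equality is no check of the scaling. Without Control replicate 1, 2 or 3, limma called 0 of the genes lower at an adjusted p-value under 0.01, while 3 had an unadjusted p-value under 0.05 in each case. In the same 3 fits the calls over all genes also dropped, to 1593, 1514 and 1525 lower and 1054, 1000 and 992 higher.

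**Figure D1:**
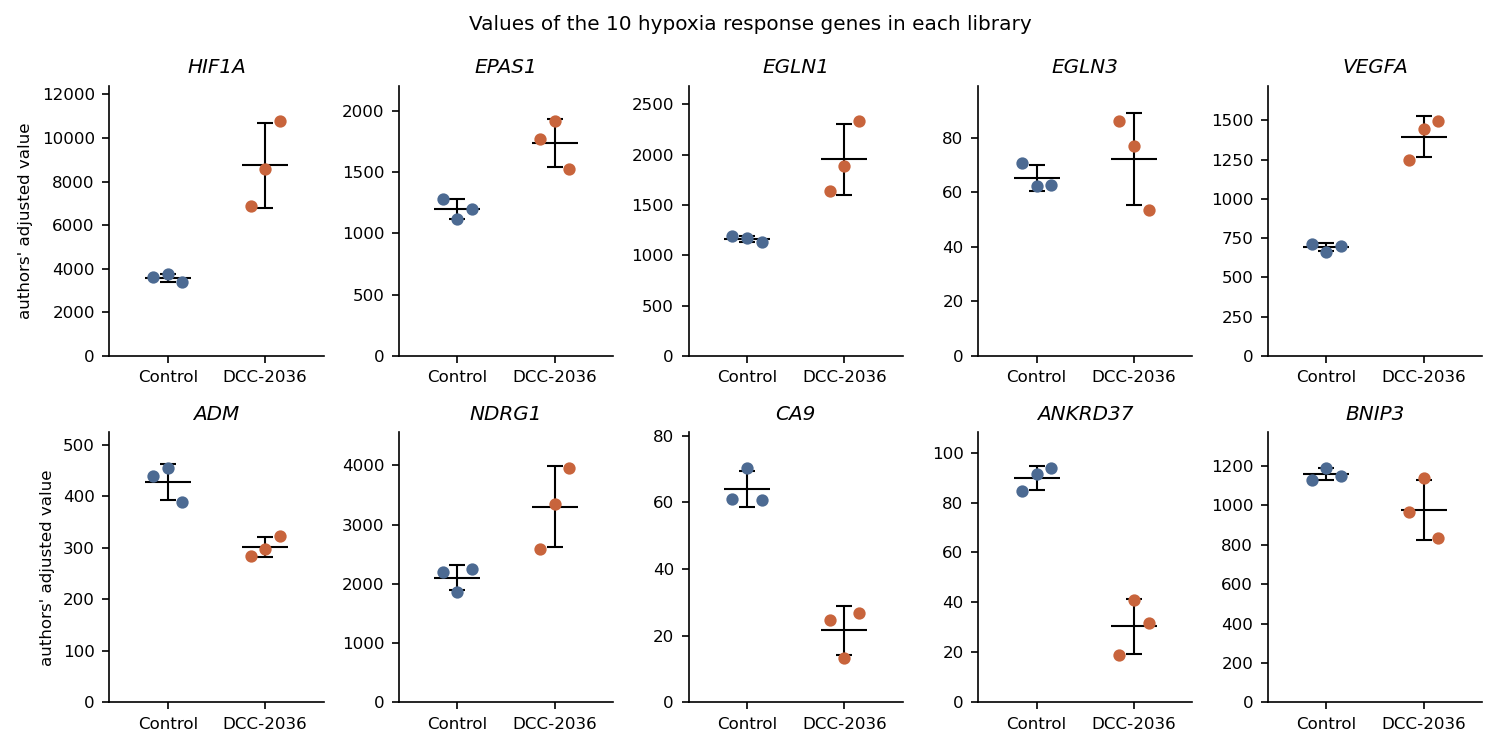
Values of the 10 genes in each library (authors' adjusted value, linear axes from 0), with 3 Control and 3 DCC-2036 points per gene and bars for the mean ± SD (n = 3). The groups are apart in 8 genes and overlap in EGLN3 and BNIP3.

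**Figure D2:**
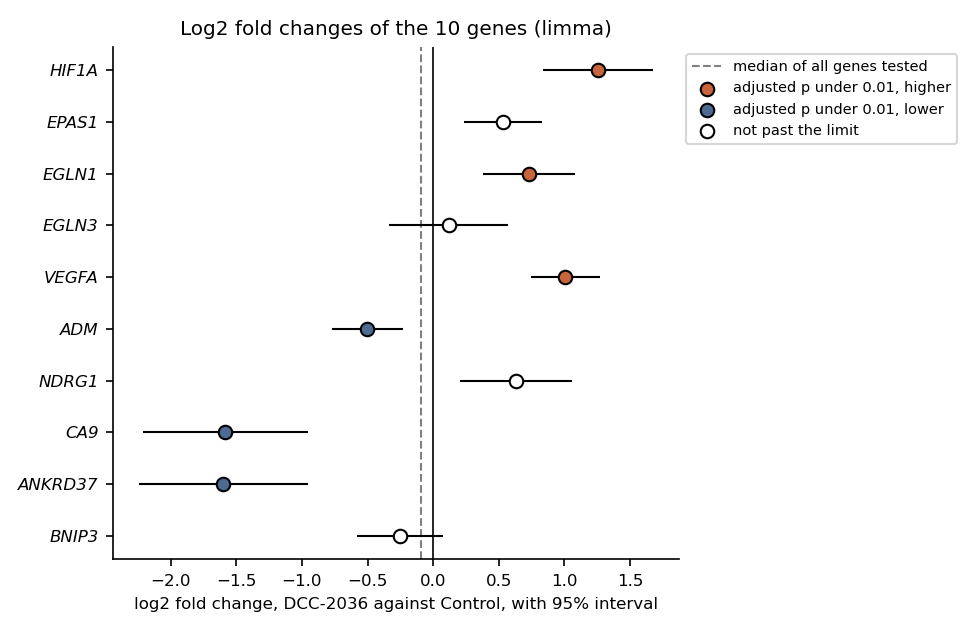
Log2 fold changes of the 10 genes (DCC-2036 against Control, limma) with 95% intervals, where filled points passed an adjusted p-value of 0.01 and the dashed line is the median of all genes tested, -0.09. The points run from ANKRD37 at -1.60 to HIF1A at 1.26, and the sign of EGLN3 turned with equal totals.

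HIF1A encodes the alpha subunit of HIF-1 and had the highest log2 fold change of the 10 genes. Control libraries read 3612, 3773 and 3406, and DCC-2036 libraries 6881, 8573 and 10773. Every DCC-2036 library lay above every Control library. The DCC-2036 libraries differed among themselves more than the Control libraries did, with an SD on the log2 scale of 0.32 against 0.07. That was general, as the median SD over all genes tested was 0.23 against 0.10, and 9 of the 10 genes had the higher SD in DCC-2036. The limma fit used a single variance per gene for both groups. The mean rose 2.43-fold, or 1.26 in log2 (SE 0.17, limma, adjusted p = 0.00156). HIF1A ranked 561 of 12725 genes by log2 fold change, counted from the highest. The table lists 3 HIF1A transcripts, whose means differ by little, the lowest being 87.9% of the highest. Their log2 fold changes lay between 1.25 and 1.28, and all 3 were called. Transcripts of a gene share reads, so that these are not separate measurements.

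EPAS1 encodes HIF-2 alpha, the related subunit. Its single transcript read 1280, 1118 and 1199 in the Control libraries against 1773, 1916 and 1525 with DCC-2036. The groups did not overlap, and the lowest DCC-2036 value was that of replicate 3. In log2 the difference was 0.53 (SE 0.12, limma, adjusted p = 0.0105), just outside the limit. With equal totals it was 0.33 and not called (limma, adjusted p = 0.0831), while scaling by median of ratios or upper quartile gave 0.60 and 0.55, both called (limma, adjusted p = 0.00565 and 0.00775). Without DCC-2036 replicate 3 it was 0.62 and passed (limma, adjusted p = 0.00337), in a range of 0.00329 to 0.0831 over all alternatives.

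Per kb of transcript, the level of HIF1A was 918 ± 46.9 (SD, n = 3) in Control and 2231 ± 498 (SD, n = 3) in DCC-2036, and that of EPAS1 was 232 ± 15.6 and 336 ± 38.3. The ratio of HIF1A to EPAS1 per kb, which does not depend on the scaling of a library, ran 3.72, 4.45 and 3.74 across Control and 5.11, 5.90 and 9.31 across DCC-2036. HIF1A was the higher of both in every library, and its ratio to EPAS1 was higher in each DCC-2036 library than in any Control library. The ratio was chosen for description after the values had been seen. HIF1A lies on the forward strand of chromosome 14 (61695513 to 61748259) and EPAS1 on that of chromosome 2 (46293667 to 46386703), by the GENCODE 29 annotation of GRCh38. No build is stated with the table. The antisense gene HIF1A-AS1 covers 117 bases of the exons of the HIF1A transcript, 2.99% of it, and a further gene on the same strand covers 148 bases.

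EGLN1 encodes PHD2, the main hydroxylase that marks HIF alpha subunits at normal oxygen. Control libraries read 1188, 1170 and 1134, and DCC-2036 libraries 1642, 1886 and 2332. The Control libraries lay close together, and every DCC-2036 library was above them. The mean rose 1.68-fold, or 0.73 in log2 (SE 0.15, limma, adjusted p = 0.00574). The call was lost without Control replicate 1, 2 or 3 or DCC-2036 replicate 2, where limma gave adjusted p-values of 0.0215, 0.0235, 0.0252 and 0.0210 for log2 fold changes of 0.75, 0.74, 0.71 and 0.75. It was also lost with equal totals, at 0.53 (limma, adjusted p = 0.0106), and without the filter (limma, adjusted p = 0.0135), in a range of 0.00133 to 0.0252 over all alternatives.

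EGLN3 encodes PHD3, a hydroxylase whose own gene is a HIF target. Its main transcript read 70.6, 62.3 and 62.5 in the Control libraries against 86.0, 76.8 and 53.4 with DCC-2036. The groups overlapped, since DCC-2036 replicate 3 was the lowest of all 6 libraries and replicate 1 the highest. In log2 the difference was 0.12 (SE 0.19, limma, adjusted p = 0.603), a 95% interval of -0.34 to 0.57, and its sign turned with equal totals and without DCC-2036 replicate 1. Over all alternatives it ran from -0.08 to 0.32, the latter without DCC-2036 replicate 3, and was never called (limma, adjusted p from 0.0451 to 0.920). The second transcript, at 30.0, 35.2 and 30.3 for Control and 42.5, 51.8 and 36.7 for DCC-2036, showed no overlap. Its log2 fold change of 0.43 was outside the limit (limma over all transcripts, adjusted p = 0.0440).

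Per kb, EGLN1 was above EGLN3 in every library, by a ratio of 6.43, 7.17 and 6.92 across Control and 7.29, 9.38 and 16.7 across DCC-2036. EGLN2, the remaining enzyme of the family, moved the other way. It fell from 1351, 1462 and 1483 to 664, 463 and 373, or -1.56 in log2 (limma, adjusted p = 0.00150). The ratio of EGLN1 to EGLN2 per kb ran 0.261, 0.237 and 0.226 across Control and 0.732, 1.21 and 1.85 across DCC-2036. In Control the EGLN2 level per kb was above that of EGLN1 in all 3 libraries, and in DCC-2036 it was below it in 2 of 3. These ratios, too, were chosen after the values had been seen.

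VEGFA encodes a growth factor for blood vessels and is a classic target of HIF-1. Control libraries read 715, 665 and 699, and DCC-2036 libraries 1251, 1445 and 1495. The groups lay far apart relative to the spread within each. The mean rose 2.02-fold, or 1.01 in log2 (SE 0.11, limma, adjusted p = 0.000730). VEGFA and HIF1A kept their direction and call in every alternative run, with adjusted p-values up to 0.00635 and 0.00914. The table lists 20 VEGFA transcripts in 10 sets of distinct values, as several hold identical numbers. All 20 were called, with log2 fold changes between 0.98 and 1.01, and the lowest mean was 76.6% of the highest. The lengths that GENCODE 29 gives these transcripts run from 414 to 3535 bases although their values are alike, so no level per kb is given for VEGFA.

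NDRG1 encodes a protein of the NDRG family that is induced by hypoxia. It read 2203, 1865 and 2254 in the Control libraries against 2597, 3345 and 3962 with DCC-2036. The groups did not overlap, with DCC-2036 replicate 1 nearest to Control. In log2 the difference was 0.63 (SE 0.18, limma, adjusted p = 0.0210), outside the limit. Without DCC-2036 replicate 1 it was 0.79 and passed (limma, adjusted p = 0.00399), in a range of 0.00399 to 0.0735 over all alternatives. The 4 transcripts of the gene gave log2 fold changes between 0.62 and 0.63.

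CA9 encodes carbonic anhydrase IX, a cell surface enzyme of pH control that is widely used as a marker of hypoxia. Control libraries read 61.1, 70.4 and 60.7, and DCC-2036 libraries 24.8, 13.2 and 26.7. All 3 DCC-2036 libraries lay far below the Control libraries, with replicate 2 the lowest. The DCC-2036 mean was 33.7% of the Control mean, or -1.58 in log2 (SE 0.26, limma, adjusted p = 0.00286). The call was lost without Control replicate 1, 2 or 3, where limma gave adjusted p-values of 0.0124, 0.0133 and 0.0124 for log2 fold changes of -1.62, -1.51 and -1.62, in a range of 0.00116 to 0.0133 over all alternatives. In GENCODE 29, exons of ARHGEF39 on the opposite strand cover 643 of the 1618 bases of the CA9 transcript, 39.7%. ARHGEF39 was also lower, at 660, 740 and 730 for Control and 81.0, 128 and 125 for DCC-2036. Whether reads were assigned by strand is not given in the sources used here, so reads of both genes cannot be told apart. Both the level of CA9 and its fall are therefore uncertain, and the part of shared reads in its values was not tested.

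ANKRD37 encodes an ankyrin repeat protein and is a known HIF-1 target. Its values went from 84.6, 91.3 and 93.9 in the Control libraries to 18.8, 40.9 and 31.6 with DCC-2036. The highest DCC-2036 value was below the lowest Control value. The DCC-2036 mean was 33.8% of the Control mean, or -1.60 in log2 (SE 0.27, limma, adjusted p = 0.00298), rank 892 of 12725 counted from the lowest. The call was lost without Control replicate 1, 2 or 3, where limma gave adjusted p-values of 0.0124, 0.0131 and 0.0143 for log2 fold changes of -1.64, -1.59 and -1.57, in a range of 0.000796 to 0.0143 over all alternatives. Exons of UFSP2 on the opposite strand cover 429 of 1141 bases of the ANKRD37 transcript, 37.6%. UFSP2 was at 371, 360 and 367 for Control and 452, 490 and 427 for DCC-2036, higher where ANKRD37 was lower. The part of shared reads in the ANKRD37 values was not tested.

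ADM encodes adrenomedullin, a secreted peptide that widens blood vessels. Control libraries read 440, 456 and 389, and DCC-2036 libraries 284, 299 and 323. The groups did not overlap, and in log2 they were closer to each other than those of CA9 or ANKRD37. The DCC-2036 mean was 70.5% of the Control mean, or -0.50 in log2 (SE 0.11, limma, adjusted p = 0.00869). The call was lost without Control replicate 1, 2 or 3 or DCC-2036 replicate 1 or 2, where limma gave adjusted p-values of 0.0359, 0.0423, 0.0174, 0.0160 and 0.0358, in a range of 0.00246 to 0.0423 over all alternatives. The log2 fold changes of those 5 fits were -0.48, -0.45, -0.57, -0.46 and -0.49. Scaling by median of ratios (limma, adjusted p = 0.0201) or upper quartile (limma, adjusted p = 0.0116) and omission of the filter (limma, adjusted p = 0.0192) ended the call as well.

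BNIP3 encodes a mitochondrial protein that takes part in mitophagy. It read 1130, 1191 and 1150 in the Control libraries against 965, 1136 and 832 with DCC-2036. The groups overlapped, as DCC-2036 replicate 2 lay above Control replicate 1. In log2 the difference was -0.25 (SE 0.14, limma, adjusted p = 0.146), a 95% interval of -0.58 to 0.07. It was -0.14 without DCC-2036 replicate 3 and -0.45 with equal totals, not called in either (limma, adjusted p = 0.283 and 0.0379, in a range of 0.0379 to 0.298 over all alternatives). GENCODE 29 names 39 pseudogenes after BNIP3, more than after any other of the 10 genes, and reads of near-identical copies may be counted with it, so its level is uncertain.

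Promoter sequences were looked up to show the letters that HIFs are known to bind. The RefSeq promoter table on GRCh38.p14 gives windows of 300 bases, 250 before to 50 after a start, for 8 of the 10 genes. The motifs ACGTG and GCGTG were searched on both strands, and matches that overlap were joined into runs. Of all 35116 windows in the table, 48.4% hold a match, and 7 of the 8 genes have one. Shown 5′ to 3′ are the windows of 4 called genes: EGLN1, which rose, at chr1:231422238-231422537 on the reverse strand, and 3 that fell, ADM at chr11:10304823-10305122, ANKRD37 at chr4:185396591-185396890 and CA9 at chr9:35673678-35673977, all forward. Capitals mark the matches.
EGLN1: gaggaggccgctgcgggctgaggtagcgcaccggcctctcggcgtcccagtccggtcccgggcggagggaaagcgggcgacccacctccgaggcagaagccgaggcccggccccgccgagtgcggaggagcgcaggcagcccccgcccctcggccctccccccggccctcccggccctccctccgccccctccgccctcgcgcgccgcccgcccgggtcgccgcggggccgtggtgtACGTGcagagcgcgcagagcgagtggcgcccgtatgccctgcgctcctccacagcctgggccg
ADM: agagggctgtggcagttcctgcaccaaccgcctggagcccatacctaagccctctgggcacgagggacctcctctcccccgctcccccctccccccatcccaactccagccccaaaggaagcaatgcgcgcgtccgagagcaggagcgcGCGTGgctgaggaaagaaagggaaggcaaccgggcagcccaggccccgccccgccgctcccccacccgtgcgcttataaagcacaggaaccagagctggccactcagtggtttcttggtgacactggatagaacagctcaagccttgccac
ANKRD37: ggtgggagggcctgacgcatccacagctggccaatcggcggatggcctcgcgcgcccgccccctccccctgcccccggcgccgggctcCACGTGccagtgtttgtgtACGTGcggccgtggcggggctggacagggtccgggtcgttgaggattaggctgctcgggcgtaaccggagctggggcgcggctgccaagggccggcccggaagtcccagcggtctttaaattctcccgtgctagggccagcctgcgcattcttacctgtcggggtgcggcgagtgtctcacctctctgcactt
CA9: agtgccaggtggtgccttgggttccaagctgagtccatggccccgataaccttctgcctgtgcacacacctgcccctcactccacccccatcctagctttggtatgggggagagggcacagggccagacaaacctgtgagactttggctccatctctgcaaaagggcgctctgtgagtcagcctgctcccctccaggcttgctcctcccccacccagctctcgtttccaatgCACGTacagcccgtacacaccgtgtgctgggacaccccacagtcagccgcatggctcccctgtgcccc
Matches occur in genes of both directions, 1 run each in EGLN1, ADM and CA9 and 2 in ANKRD37. The starts are those of RefSeq, and in all 4 genes they lie inside the GENCODE 29 transcript described above, not at its end. The first of the HIF1A windows and that of EPAS1 hold 1 run each and that of BNIP3 holds 5, whereas the letters are not in the other HIF1A window or in that of EGLN3, so that 7 of 9 windows of the genes hold a match. A match is a description of letters and shows no binding.

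The other genes of the pathway were taken as 10 lists with 101 genes, of which 88 passed the filter. Of these, 23 were called higher and 16 lower, where 19.2% and 22.7% of all genes tested were, and 49 were not called. Their median log2 fold change was -0.04, beside -0.09 over all genes tested. With equal totals 15 were called higher and 18 lower, where 1669 and 3440 of all 12737 genes tested were. The median was then -0.24, beside -0.29 over all genes tested. With 1 library left out, from 7 to 24 were called higher and from 8 to 23 lower, as all genes called ran from 928 to 2675 and from 1514 to 3507.

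Among HIF subunits and cofactors, 1 of 6 genes tested was called higher and 0 lower (limma), beside 19.2% and 22.7% of all genes. At an unadjusted p-value under 0.05 (limma), ARNT2 was lower, and CREBBP, EP300 and HIF3A were higher. The coactivator CREBBP rose from 2927, 2624 and 2904 to 4178, 5005 and 5247, or 0.77 in log2 (limma, adjusted p = 0.00269). ARNT, the partner of the alpha subunits, read 902, 859 and 819 against 1125, 948 and 790 with DCC-2036. These overlapped, at a log2 difference of 0.14 (limma, adjusted p = 0.447). HIF3A, another alpha subunit, read 6.57, 8.88 and 5.46 in Control against 13.6, 19.7 and 58.2 with DCC-2036. Every Control value was under the minimum of the filter, so HIF3A was tested only because its DCC-2036 values were above it. With that limit, it was not called (limma, adjusted p = 0.0232). ARNT2, EP300 and CITED2 were not called either.

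Among genes of oxygen sensing and HIF degradation, 6 of 10 were called higher and 3 lower, beside 19.2% and 22.7% of all genes. VHL, which recognises hydroxylated HIF alpha subunits, rose from 1434, 1460 and 1343 to 1987, 2104 and 2487, or 0.63 in log2 (limma, adjusted p = 0.00482). Its partners ELOB, ELOC and CUL2 rose with log2 fold changes of 0.85, 0.89 and 0.60, and the ubiquitin ligases SIAH1 and SIAH2 with 1.17 and 0.92. RBX1, a further subunit of the VHL ligase, fell from 676, 849 and 840 to 512, 402 and 355, or -0.91 in log2 (limma, adjusted p = 0.00478). HIF1AN, the asparagine hydroxylase that limits HIF activity, fell from 2636, 2699 and 2749 to 1449, 1036 and 807, or -1.34 in log2 (limma, adjusted p = 0.00248). P4HTM was not called.

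Relatives of the targets also differed among themselves. In the VEGF list, 4 of 9 genes passed the filter and 1 was called, beside 41.9% of all genes tested. VEGFB fell from 397, 458 and 462 to 259, 259 and 281, or -0.72 in log2 (limma, adjusted p = 0.00214), while VEGFA rose. PGF, NRP1 and NRP2 were not called, and the receptors FLT1, KDR and FLT4 did not pass the filter. Of the adrenomedullin receptor parts, CALCRL and RAMP1 were tested and not called. NDRG3 rose from 911, 911 and 961 to 2143, 2250 and 1994, or 1.20 in log2 (limma, adjusted p = 0.000335), and NDRG2 and NDRG4 were not called. BNIP3L, which acts beside BNIP3 in mitophagy, fell from 968, 845 and 896 to 434, 446 and 509, or -0.96 in log2 (limma, adjusted p = 0.000907). FUNDC1, a further mitophagy receptor, rose by 0.71 in log2 (limma, adjusted p = 0.00333), and PINK1 and FKBP8 were not called.

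In the list of pH regulation, 1 of 6 genes tested was called higher and 2 lower, beside 19.2% and 22.7% of all genes. The lactate transporters SLC16A1 and SLC16A3 moved in opposite directions. SLC16A1 rose from 2619, 2811 and 2497 to 5522, 7319 and 9085, or 1.44 in log2 (limma, adjusted p = 0.00133). SLC16A3, a known HIF-1 target, fell from 6221, 5910 and 5986 to 2827, 2276 and 1666, or -1.45 in log2 (limma, adjusted p = 0.00141). CA2 fell, as the values of CA9 did, by -0.81 in log2 (limma, adjusted p = 0.00428), and CA12 and SLC4A7 were not called.

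HIF targets of glucose metabolism counted 4 of 23 called higher and 3 lower, beside 19.2% and 22.7% of all genes, with a median log2 fold change of -0.06. Highest among called genes were SLC2A1 (1.33), the glucose transporter GLUT1, HK2 (1.11) and GAPDH (0.67), and lowest ENO2 (-2.04), GYS1 (-1.59) and PFKP (-1.55), all in log2. SLC2A1 rose from 4208, 3693 and 4225 to 9641, 10729 and 10163 (limma, adjusted p = 0.000315). ENO2, the neuronal enolase, fell from 1819, 1625 and 1827 to 502, 398 and 390 (limma, adjusted p = 0.000218), and 16 genes of the list were not called.

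Among HIF targets of regulation and survival, 7 of 18 were called higher and 4 lower, beside 19.2% and 22.7% of all genes. MXI1 (1.13), DDIT4 (1.07) and ERO1A (0.98) had the highest log2 fold changes among called genes, and BHLHE41 (-1.71), HILPDA (-0.75) and KDM3A (-0.71) the lowest. DDIT4, an inhibitor of mTORC1, rose from 1566, 1542 and 1424 to 2804, 3314 and 3405 (limma, adjusted p = 0.000728). HILPDA, a lipid droplet protein, fell from 425, 391 and 434 to 202, 262 and 287 (limma, adjusted p = 0.00614). Of the secreted and matrix targets, 2 of 12 were called higher, EFNA3 (0.72) and TGFA (0.42), and 2 lower, PLOD1 (-1.18) and ANGPTL4 (-1.10), against the same shares of all genes.

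**Figure D3:**
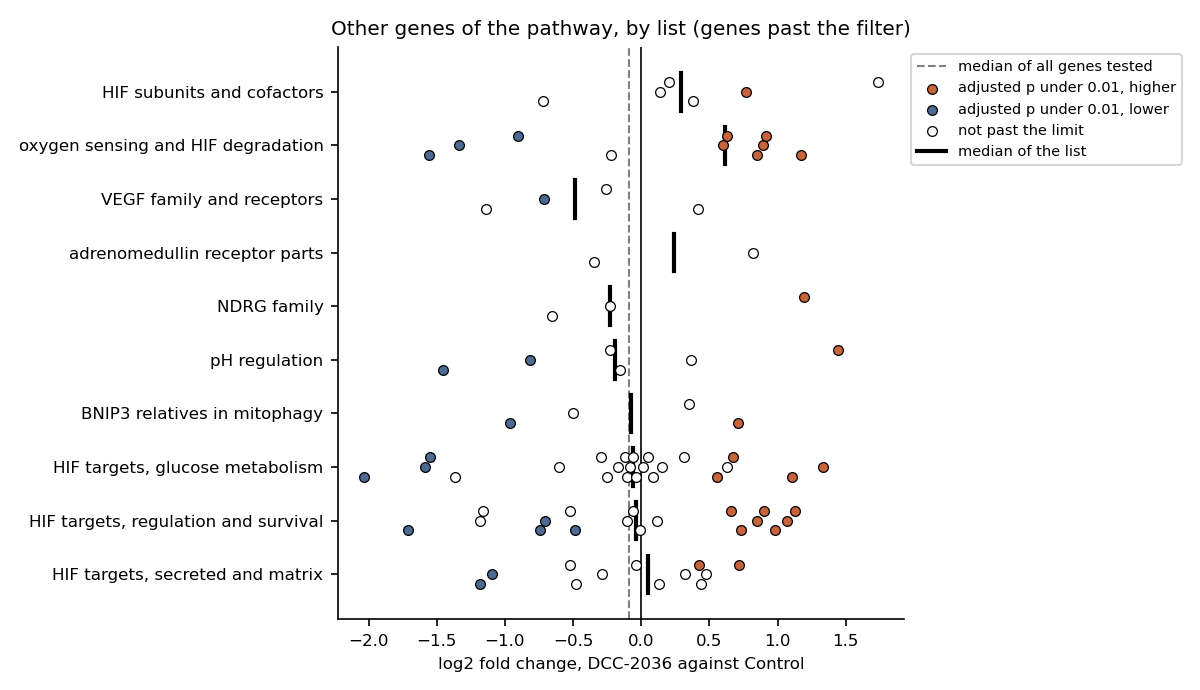
Log2 fold changes (DCC-2036 against Control) of the 88 pathway genes that passed the filter, by list, where filled points passed an adjusted p-value of 0.01 (limma), black bars are list medians and the dashed line is the median of all genes tested. Called genes lie on both sides of 0 in 6 of the 10 lists.

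Markers of cell types were checked in the same libraries. Of 10 epithelial and colon markers, 7 passed the filter, with KRT8 the most abundant, and 2 were called higher and 1 lower, beside 19.2% and 22.7% of all genes. CDH17, VIL1 and CEACAM5 stayed at 5.12 or below in every library. The summed level of this list was 104485, 108197 and 114999 for Control and 148342, 163485 and 188447 for DCC-2036. KRT8 alone made up most of it, with means of 59932 and 108237. KRT8 and CDH1 rose and KRT20 fell, EPCAM and KRT18 were not called though their groups did not overlap, and KRT19 and CDX2 were not called. The fibroblast list, with COL1A1 the most abundant, summed to 436, 413 and 370 for Control against 515, 454 and 554, and the endothelial list, with VWF the most abundant, to 17.0, 8.58 and 17.7 against 43.4, 20.8 and 24.9. Both sums were higher in every DCC-2036 library, and neither list had a called gene among the 2 and 1 tested (limma), where VWF had an unadjusted p = 0.0394. The immune list, with CD68 the most abundant, summed to 237, 280 and 270 against 226, 256 and 293, with overlap. PTPRC and EMCN were listed at 0 in all 6 libraries. The part of these markers in the values of the hypoxia response genes was not tested.

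**Figure D4:**
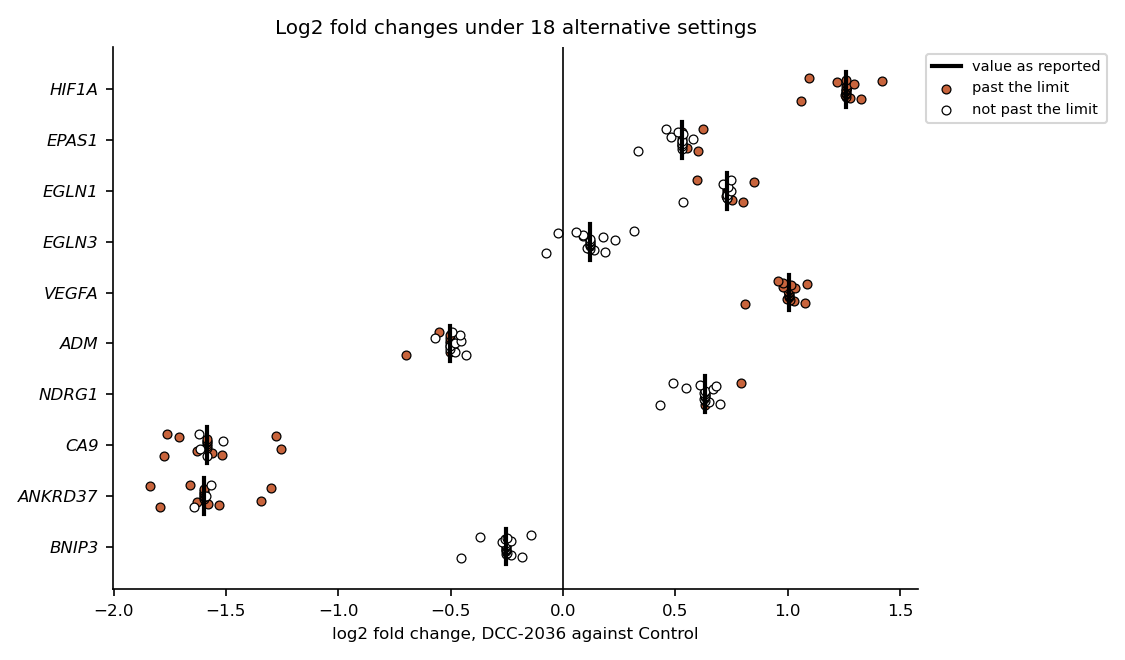
Log2 fold changes of the 10 genes under the 18 alternative settings, where filled points passed the limit of the setting, open points did not, and black bars are the values as reported. EGLN3 has points on both sides of 0, and the other genes keep their sign.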

How the data were processed

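RNA was extracted with Trizol and libraries were made with a Nextera XT kit, per the labels. The authors deposited 1 table of RefSeq transcripts with 1 column per library, holding signal that they had adjusted to a common depth. Of VEGFA transcripts with identical values the first by accession was used. The aligner, counter and build are not given in the sources used here, reads could not be recovered from the values, and depth is unknown. The log2 fold change, p-value and q-value columns that the authors deposited hold their own comparison and were not used. The table has 0 further columns of values per sample.

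Groups follow the sample titles. The test was run on log2(value + 1) by limma 3.58.1 under R 4.3.3, without covariates, with the filter, adjustment and limit given above. Python 3.11.15 made the tables and plots (pandas 2.3.3, numpy 2.4.6, matplotlib 3.10.9). The fit was tested on simulated data in which both groups had the same spread, so the unequal spread of the real groups was not tested. Lengths and positions came from GENCODE 29 through RefSeq accessions, and 1 list gene was matched through an older symbol. Alternatives were 3 scalings, other pseudocounts (0.1 and 10), filters, a trend, a limit of 0.05, a replicate block, other uses of transcripts and each library left out.

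The members and lists were chosen with earlier results of these data known. Named are all 10 members, the tested genes of lists with at most 10 genes except 1 item that is not reported here, and of longer lists the 3 called genes at each end by log2 fold change, with DDIT4 and HILPDA. ARHGEF39 and UFSP2 were named after their values were seen, because they overlap members, and so were FLT1, KDR and FLT4, which did not pass the filter.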

Additional observations from a re-analysis of the deposited data

How the results depend on the processing

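Of the 10 genes, HIF1A, VEGFA and BNIP3 kept direction and side of the limit in all 18 alternatives. In the fits that each left out 1 library, the log2 fold change ran from -0.57 to -0.45 for ADM, -1.84 to -1.30 for ANKRD37, -0.37 to -0.14 for BNIP3, -1.76 to -1.28 for CA9, 0.60 to 0.85 for EGLN1, -0.021 to 0.32 for EGLN3 (negative without DCC-2036 replicate 1), 0.46 to 0.62 for EPAS1 and 0.49 to 0.79 for NDRG1. From 2 to 4 members were called higher and from 0 to 3 lower, where limma at an unadjusted p-value under 0.05 had at least 3 lower in each fit. All genes called ran from 928 to 2675 higher and 1514 to 3507 lower, and pathway genes from 7 to 24 and 8 to 23.

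With equal totals the log2 fold change of EGLN3 was -0.077 and that of EGLN1 0.53, the latter no longer called. In the same fit EPAS1 was at 0.33 and BNIP3 at -0.45, neither called. There the median of pathway genes was -0.24 and 15 of them were called higher, beside -0.29 and 1669 over all 12737 genes tested. With median of ratios ADM was at -0.43, no longer called, EPAS1 at 0.60, now called, and the pathway median at 0.031. With upper quartile ADM was at -0.48, no longer called, and EPAS1 at 0.55, now called. Without the filter ADM (-0.50) and EGLN1 (0.73) lost the call. Of 101 pathway genes tested, 13 were then called higher and 11 lower, where 1749 and 2154 of 16667 genes in all were. EPAS1 was called with log2(value + 10) (0.53), with values of at least 10 in all 6 libraries, with a trend, at an adjusted p-value under 0.05 and with transcripts as separate rows (0.53 in each), and NDRG1 with a trend and at 0.05 (0.63), so that 5 members were higher in both of these. With the trend 2880 genes in all were called higher. At 0.05, 29 pathway genes were higher and 25 lower, beside 28.5% and 33.7% of all genes tested.

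Same-numbered libraries deviated from their group means with correlations of 0.081, -0.035 and -0.003 across genes, so the numbers share no more than a label. The replicate block called 1202 genes higher and 1909 lower, 9 pathway genes higher and 1 member lower, and ADM (-0.50), CA9 (-1.58) and EGLN1 (0.73) were not called. Causes were not tested where none is named. Read numbers are unknown and counting error cannot be given, which limits low values most.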
